A study of Mus musculus with 6 samples.

Results

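The core autophagy machinery was followed in RNA from AT2 cells of the mouse, the alveolar type II epithelium that makes lung surfactant. Its 38 members, of 52550 rows in the deposited count table, are the 19 rows whose symbol starts with Atg and a digit and 19 further genes chosen by name: Ulk1, Ulk2, Becn1, Map1lc3a, Map1lc3b, Gabarap, Gabarapl1, Gabarapl2, Sqstm1, Nbr1, Optn, Wipi1, Wipi2, Rb1cc1, Pik3c3, Uvrag, Ambra1, Tfeb and Tfe3. Of these, 37 passed the filter on low counts. The other, Atg4a-ps, named as a pseudogene of Atg4a, had 8, 0 and 0 counts in controls 1, 2 and 3 and 2, 6 and 4 in libraries 1, 2 and 3 labelled knockout.

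All 6 samples came from C57BL/6 mice labelled Sftpc+/creERT2; Grp78f/f, so both groups shared a Cre recombinase driven from the Sftpc locus and floxed Grp78, the endoplasmic reticulum (ER) chaperone that Hspa5 encodes. The 3 controls are labelled as without tamoxifen (Tmx, the drug that activates this Cre) and the 3 knockouts as with it, so tamoxifen and the loss of Grp78 cannot be told apart. The day label of all 6 samples counts 10 days from a tamoxifen injection, controls included, although the genotype label gives these no tamoxifen. Dispase freed the cells, and magnetic sorting kept those with EPCAM and without CD45. Other lung epithelial cells also pass this gate, and Cre acts only in cells that express Sftpc. Not given in the sources used here were the age of the mice and whether each library was 1 animal, so the spread behind the p-values may be technical.

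Autophagy delivers cytoplasm, protein aggregates and organelles to lysosomes inside a double-membraned vesicle, the autophagosome. The ULK1 kinase complex starts the process, a lipid kinase complex around Pik3c3 marks the growing membrane with the lipid PI3P, and Atg2 and Atg9 proteins supply that membrane with lipid. Conjugation enzymes then attach LC3 and GABARAP proteins to it, which hold cargo receptors such as p62. In secretory cells such as AT2 cells the pathway also takes up parts of the ER, and AT2 cells store surfactant in lamellar bodies, which are related to lysosomes.

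Hspa5 RNA, the target of the deletion, was higher in the libraries labelled knockout (normalised CPM 1355, 1288 and 925 in controls 1, 2 and 3, and 9262, 9180.5 and 3809 in libraries 1, 2 and 3 labelled knockout). Its rise was 6.24-fold (edgeR adjusted p = 0.00208), against the label. The table gives 1 count per gene and so cannot single out the floxed exons, and each direction below follows the labels. Values are CPM, counts scaled to the library total and by TMM factors, a normalisation that assumes most genes do not change. Totals ranged from 110770711 to 149520306 counts per library. All 12 AT2 markers were called lower in the libraries labelled knockout, and their summed level ranged from 106339 to 122949 CPM in controls and from 41183 to 52440.0 CPM in the libraries labelled knockout. The 13 markers of fibroblasts and smooth muscle, of which 12 were called higher, had summed levels of 238, 236 and 598 CPM in the controls, by number, and of 1268, 1368 and 1408 CPM in the libraries labelled knockout. The 14 leukocyte markers other than Lyz1, which AT2 cells also express, summed to 13.5 to 19.4 CPM in controls, to 16.6 and 17.4 CPM in libraries 1 and 2 labelled knockout and to 131 CPM in library 3. Among them Marco had 0 counts in control 1 and Cd3e 0 in library 2 labelled knockout. The 10 AT1 markers, of which 4 were called lower and 1, Pdpn, higher, summed to 2403 to 2668 CPM in controls and 1664 to 1710.4 CPM in the libraries labelled knockout. Of 6 mesothelial markers 5 were called higher. The sum of the 6, made up mostly of Krt19, was 265 to 314 CPM in controls and 460.5 to 597 CPM in the libraries labelled knockout. Of 8 airway markers 2, Tmem212 and Cdhr3, were called higher. The airway sums, made up mostly of Scgb1a1, overlapped between groups, at 30665 to 56244 CPM in controls and 31761 to 35360.4 CPM in the libraries labelled knockout. The libraries numbered 3 stood apart within their groups. Pairs with a library 3 had a mean chi-square of 79.3 to 171 per gene on halved counts. Controls 1 and 2 had 20.1, and libraries 1 and 2 labelled knockout had 8.07. The deviations of either library 3 from its group mean ran against those of the other group's libraries 1 and 2 (r = -0.350 to -0.211 across genes). Centring on the group means partly fixes that sign. The part of these cell type differences in the results below was not tested, and in sorted bulk RNA fewer cells of a type and less RNA per cell cannot be told apart.

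With TMM scaling more autophagy genes were called lower than higher in the libraries labelled knockout. This balance turned with library-size scaling, which also raised the higher share of all genes called from 48.9% to 82.2%. With TMM scaling 14 of 37 members tested fell, 3 rose and 20 were not called. A call is an adjusted p under 0.05 in edgeR's quasi-likelihood test over all 18849 genes tested. The risers were Atg9b, Sqstm1 and Wipi1, and the largest falls were those of Optn, Atg2a, Ulk1 and Atg16l2. Over all genes tested 36.8% were called, 18.0% higher and 18.8% lower, against 45.9% of members, 8.11% higher and 37.8% lower. The median log2 fold (knockout-labelled over control) was -0.21 over the members and 0.02 over all genes tested. Of the members, 23 (62.2%) did not overlap between groups, with 4 higher and 19 lower in those labelled knockout. Of all genes tested 51.6% did not overlap, with 4704 higher and 5022 lower.

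The number of falls depended on the scaling and on single libraries. Scaling by library size alone moved the median of all genes tested by 0.26 on the log2 scale, and then 9 members were called higher and 2 lower, with a median of 0.04. Over all genes 7561 were then called, 6218 of them higher, against 3391 higher of 6938 called in the reported fit. The member median lay -0.23 from that of all genes under both scalings. Upper-quartile factors gave 5 higher and 11 lower, and the replicate number as a block gave 5 higher and 17 lower. With control 2 left out 7 members were lower and 2 higher. With library 1 or library 2 labelled knockout left out 6 were lower and 2 higher in each case, and with control 1 left out 10 and 2. With library 3 labelled knockout left out, 17 were lower and 6 higher. With both libraries numbered 3 left out, 20 were lower and 7 higher. All genes called numbered 3706 without control 2 and 5258 without control 1. They numbered 3981, 3779 and 8548 without library 1, 2 or 3 labelled knockout, and 10581 without both libraries numbered 3. Calls of Atg9b, Sqstm1, Optn and Atg16l2 held in each of the 15 alternatives in which they were tested, and no called member changed direction in any of them.

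**Figure D1:**
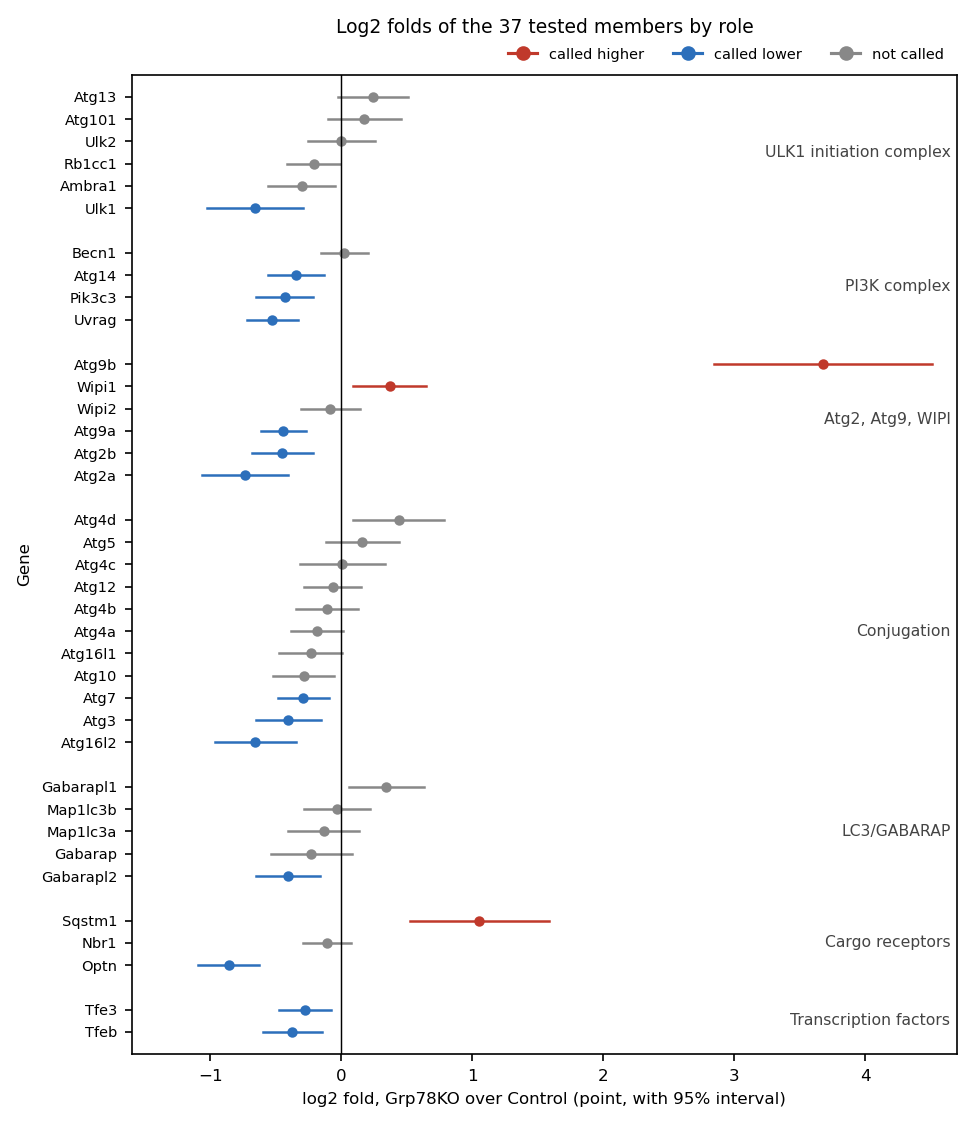
Log2 fold of each of the 37 tested members (x axis, knockout-labelled over control libraries, 3 against 3) by role, with the point at the fitted value, the line its 95% interval and the colour the edgeR call. Atg9b at 3.67 and Sqstm1 at 1.05 lie to the right of the rest, and 14 members are called lower.

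TFEB and TFE3 bind E-box sequences, and stress factors bind others, so the promoters of the members were searched for such letters. RefSeq windows from 250 bases before to 50 after each start (GRCm38.p6, the build of mm10) matched 31 of 38 members by symbol. On both strands, CACGTG was found in 4 of 31 members (12.9%) beside 9.13% of the windows of tested genes. The 4 were Atg3, Atg7 and Atg14, called lower, and Atg5, not called. Here and below members are counted as genes, and the 31 had 37 windows in all. The background counts windows, so the shares have unlike units. For 27 of the 31 a RefSeq start lay within 1000 bases of the gene's start in GENCODE M21. The others were Atg4b, Wipi2, Atg14 and Atg7. The RefSeq starts of Atg14 and Atg7, whose windows held CACGTG, lay 2215 and 27999 bases inside the annotated gene. The CLEAR element of lysosomal genes, which is CACGTG with GT before and AC after it, was found in 0 members beside 0.551% of windows. TGATGNAA, bound by ATF4 with C/EBP factors, was in 0 beside 2.38%, and the ER stress element, CCAAT and CCACG with 9 bases between, in 0 beside 0.127%. TGACNNNGC, the core of the antioxidant element, was found in 3 members, Atg13, Map1lc3b and Ulk2, beside 14.2% of windows. None of the 5 motifs was in the windows of the 3 risers or of Optn. At these background shares few or no matches would be found in so few genes, so the absences say little. Only exact matches to the letters were counted.

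The stretches printed here are the exon-free bases nearest the RefSeq start of the 3 genes that rose, of Optn, and of Atg3, 5′ to 3′ on the gene's strand, with CACGTG in capitals. They show where the pair of E-boxes of Atg3 lies, at -94 and -71 from the start. The Wipi1 stretch belongs to a RefSeq start 578 bases inside the gene as GENCODE annotates it. The Sqstm1 stretch is the shortest, at 62 bases, since an exon of another transcript lies before it.
Sqstm1, chr11:50210828-50210889, minus strand: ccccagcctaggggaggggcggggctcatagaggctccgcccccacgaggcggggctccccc
Atg9b, chr5:24392144-24392393, minus strand: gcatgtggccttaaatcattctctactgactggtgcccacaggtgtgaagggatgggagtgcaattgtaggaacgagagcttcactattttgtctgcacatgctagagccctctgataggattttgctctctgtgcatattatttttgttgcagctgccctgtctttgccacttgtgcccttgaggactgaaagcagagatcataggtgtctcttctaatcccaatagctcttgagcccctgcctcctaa
Wipi1, chr11:109611433-109611639, minus strand: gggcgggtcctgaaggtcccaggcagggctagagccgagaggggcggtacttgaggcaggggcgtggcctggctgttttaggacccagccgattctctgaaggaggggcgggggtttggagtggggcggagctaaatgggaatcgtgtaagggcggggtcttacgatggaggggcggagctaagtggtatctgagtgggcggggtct
Optn, chr2:5064118-5064367, minus strand: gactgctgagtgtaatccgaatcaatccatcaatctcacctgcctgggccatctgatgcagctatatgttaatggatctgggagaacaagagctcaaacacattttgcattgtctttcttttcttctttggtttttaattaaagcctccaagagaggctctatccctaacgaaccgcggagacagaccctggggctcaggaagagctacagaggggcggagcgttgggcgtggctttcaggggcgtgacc
Atg3, chr16:45158707-45158784, plus strand: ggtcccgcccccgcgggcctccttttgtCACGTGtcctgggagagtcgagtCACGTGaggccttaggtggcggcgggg

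Of the cargo receptors, which tie ubiquitin-tagged cargo to the autophagosome, 1 rose, 1 fell and 1 was not called. Sqstm1 (chromosome 11, 50199366 to 50210827, minus strand, mm10) encodes p62, which binds ubiquitin and LC3 and is itself degraded by autophagy. It stood at 451, 447 and 359 CPM in controls 1, 2 and 3 and at 1027, 999.7 and 582 in libraries 1, 2 and 3 labelled knockout. Libraries 1 and 2 labelled knockout lay highest, library 3 lay between them and the controls, and the groups did not overlap. The rise was 2.07-fold (log2 fold 1.05, SE 0.228, edgeR adjusted p = 0.0111). The log2 fold was 1.27 when library 3 labelled knockout was left out and 0.92 when library 1 was. Library 3, with the lowest Sqstm1 of the libraries labelled knockout, differed from that group's libraries 1 and 2 in other ways too. It had their highest leukocyte marker sum without Lyz1 (131 CPM) and highest AT2 marker sum (52440 CPM). Its Hspa5 (3809 CPM) and endothelial marker sum (453 CPM) were the lowest of the group. Whether any of these bears on its Sqstm1 level was not tested. Sqstm1 shares 17.3% of its exonic bases with Mrnip on the opposite strand, whose log2 fold was -0.43.

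Optn (chromosome 2, 5020642 to 5064051, minus strand) encodes optineurin, a receptor used for damaged mitochondria and bacteria. It stood at 45.2, 53.8 and 46.3 CPM in the controls and at 26.6, 28.2 and 25.2 CPM in the libraries labelled knockout. Every library labelled knockout was below every control, with little spread within the group. The fall was 0.86 on the log2 scale (SE 0.0990, edgeR adjusted p = 0.00115), or 1.82-fold. Nbr1, a receptor that works beside p62, read 124, 127 and 125 CPM in controls and 114, 120.2 and 115 CPM in the libraries labelled knockout. Its groups did not overlap, but the log2 fold was only -0.11 (95% interval -0.29 to 0.08, edgeR adjusted p = 0.320).

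**Figure D2:**
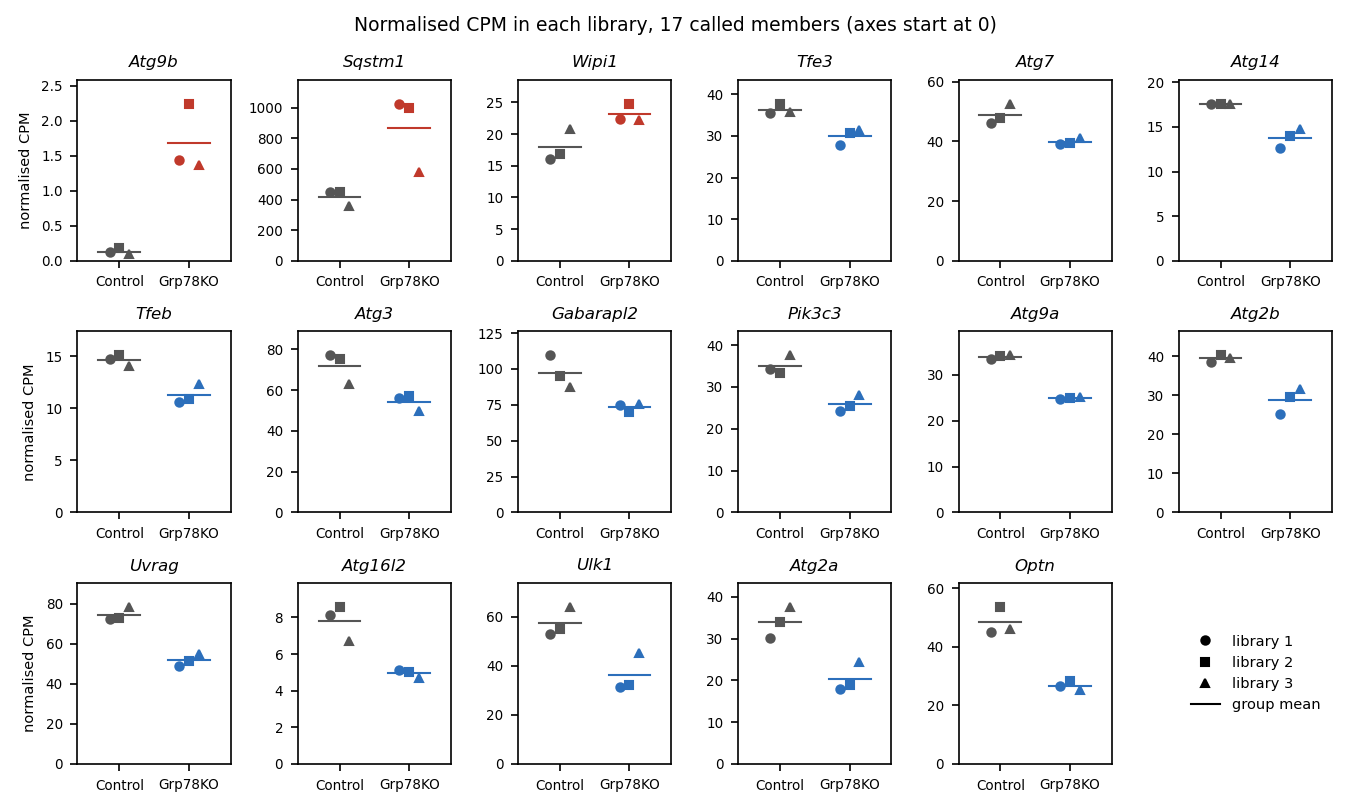
Normalised CPM (y axis, from 0 in each panel) in each of the 3 control and 3 knockout-labelled libraries for the 17 called members, with a symbol per library number and a line at the group mean. Sqstm1 in library 3 labelled knockout (582) lies between the controls and the other libraries labelled knockout, while Optn is below 29 in all 3.

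The genes that supply and shape the membrane held both the largest rise and several falls: of 6, 2 rose and 3 fell. Atg9a (chromosome 1, 75180860 to 75192196, minus strand) encodes the widely expressed scramblase carried on the vesicles that seed the autophagosome. It read 33.5, 34.1 and 34.3 CPM in controls and 24.7, 25 and 25.2 CPM in the libraries labelled knockout. The values were tight in both groups and did not overlap, and the fall was 0.44 on the log2 scale (SE 0.0743, edgeR adjusted p = 0.00424). Atg9b (chromosome 5, 24384181 to 24392143, minus strand) encodes its less widely expressed paralog. It had 14, 24 and 12 counts in controls 1, 2 and 3, or 0.123, 0.177 and 0.0919 CPM. In libraries 1, 2 and 3 labelled knockout it had 196, 267 and 193 counts, or 1.44, 2.24 and 1.37 CPM. All 3 libraries labelled knockout thus lay well above the controls, from a low level, and the rise was 12.8-fold (log2 fold 3.67, SE 0.359, edgeR adjusted p = 0.000746).

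Per kilobase of exon, Atg9b remained the lower of the pair: Atg9a was at 4.33 ± 0.0361 CPM per kilobase and Atg9b at 0.427 ± 0.123 in the libraries labelled knockout (mean ± SD, n = 3). Atg9b overlaps the endothelial gene Nos3 on the opposite strand over 294 exonic bases, 7.45% of its exons, and the counting is not stated to use strand. Nos3 had 360, 464 and 419 counts in controls and 1082, 967 and 427 in the libraries labelled knockout. The part of Nos3 reads in the Atg9b counts was not tested. The 8 endothelial markers had summed levels of 492, 495 and 450.1 CPM in the controls, by number, and of 737, 777 and 453 CPM in the libraries labelled knockout. Of them 1, Vwf, was called higher, with means of 159 CPM in controls and 308 CPM in the libraries labelled knockout. The other 7 were not called, and the log2 fold of Kdr was negative (-0.22). Atg9a shares 31.8% of its exonic bases with the transcript Gm29253, which had 0 to 87 counts per library.

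Atg2a and Atg2b encode the tubes that carry lipid from the ER to the growing membrane, and both fell. Atg2a read 30.2, 33.9 and 37.7 CPM in controls and 17.9, 18.9 and 24.4 CPM in the libraries labelled knockout. Library 3 labelled knockout was the highest of its group and still below the lowest control (log2 fold -0.73, SE 0.142, edgeR adjusted p = 0.00721). Atg2b read 38.4, 40.3 and 39.6 CPM in controls and 25.3, 29.6 and 31.7 CPM in the libraries labelled knockout. Its groups did not overlap (log2 fold -0.45, SE 0.102, edgeR adjusted p = 0.0128), and without control 2 its adjusted p was 0.0521.

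Of the WIPI proteins, which read PI3P on the membrane, Wipi1 rose and Wipi2, which recruits the LC3 conjugation enzymes, was not called. Wipi1 read 16.1, 16.9 and 20.8 CPM in controls and 22.4, 24.8 and 22.2 CPM in the libraries labelled knockout. Control 3 was the nearest to the other group without overlapping it (log2 fold 0.37, SE 0.119, edgeR adjusted p = 0.0450). The call ended when control 1, control 2, or either of libraries 1 and 2 labelled knockout was left out (edgeR adjusted p = 0.145, 0.170, 0.0952 and 0.154). Wipi2 read 53.5, 56.7 and 58.6 CPM in controls and 52.3, 58.6 and 48.2 CPM in the libraries labelled knockout. Its groups overlapped (log2 fold -0.09, 95% interval -0.31 to 0.14, edgeR adjusted p = 0.516). The calls of Atg9a, Atg2a and Atg2b ended with library-size scaling (edgeR adjusted p = 0.137, 0.0725 and 0.265).

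In the lipid kinase complex 3 of 4 genes fell and Becn1 was not called. Uvrag, a subunit linked to autophagosome maturation and endosome traffic, read 72.3, 72.8 and 78.6 CPM in controls and 49.1, 51.2 and 54.7 CPM in the libraries labelled knockout. The groups were far apart for their spread, and the antisense Gm45187, over 17.6% of Uvrag's exonic bases, had 0 to 14 counts per library (log2 fold -0.53, SE 0.0839, edgeR adjusted p = 0.00352). Pik3c3, the catalytic subunit VPS34, read 34.3, 33.3 and 37.6 CPM in controls and 24.4, 25.4 and 28.1 CPM in the libraries labelled knockout (log2 fold -0.43, SE 0.0944, edgeR adjusted p = 0.0113). Atg14, which directs the kinase to the autophagosome site on the ER, read 17.5, 17.5 and 17.6 CPM in controls and 12.7, 13.96 and 14.7 CPM in the libraries labelled knockout (log2 fold -0.35, SE 0.0922, edgeR adjusted p = 0.0227). Neither gene overlapped between groups, and library 3 labelled knockout lay nearest the controls for both.

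Becn1, the scaffold shared by the Atg14 and Uvrag forms of the complex, read 73.1, 71.1 and 68.8 CPM in controls and 74.2, 73.7 and 68.5 CPM in the libraries labelled knockout. Becn1 shares 43.9% of its exonic bases with Cntd1 on the opposite strand. Cntd1 had 81 to 233 counts per library, beside 8332 to 10088 for Becn1. The groups of Becn1 overlapped, with a log2 fold of 0.02 (95% interval -0.16 to 0.21, edgeR adjusted p = 0.834). Becn1 was called higher with library-size scaling (log2 fold 0.28, edgeR adjusted p = 0.0191). That scaling ended the calls of Uvrag, Pik3c3 and Atg14 (edgeR adjusted p = 0.0901, 0.295 and 0.561). Without library 1 or 2 labelled knockout the adjusted p was 0.0508 and 0.0537 for Pik3c3 and 0.0973 and 0.0775 for Atg14, which was also lost without control 1 (0.0512), without control 2 (0.0748) and with upper-quartile factors (0.0503).

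Of the 6 genes of the ULK1 initiation complex and its regulator Ambra1, only Ulk1 was called, lower. Ulk1, the kinase that mTORC1 inhibits and AMPK activates, read 52.9, 54.8 and 64.1 CPM in controls and 31.4, 32.2 and 45.3 CPM in the libraries labelled knockout. Library 3 labelled knockout was again nearest the controls, without overlap (log2 fold -0.66, SE 0.158, edgeR adjusted p = 0.0160). Its paralog Ulk2 read 46.3, 47.9 and 48.6 CPM in controls and 43.9, 43.7 and 55.2 CPM in the libraries labelled knockout. There library 3 labelled knockout was the highest of all 6, and the log2 fold was 0.00 (95% interval -0.26 to 0.25, edgeR adjusted p = 0.995). Whether the Ulk1 and Ulk2 differences differ from each other was not tested.

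Atg13 and Atg101, the adaptor pair of the complex, had log2 folds of 0.24 and 0.17 (edgeR adjusted p = 0.134 and 0.285). Atg13 read 82.0, 82.8 and 79.4 CPM in controls and 104, 104 and 80.6 CPM in the libraries labelled knockout. Libraries 1 and 2 labelled knockout stood above all controls and library 3 did not, and without library 3 Atg13 was called higher (log2 fold 0.35, edgeR adjusted p = 0.00658). The scaffold Rb1cc1 (FIP200) and Ambra1 had log2 folds of -0.21 and -0.30 with no overlap between groups. They missed the threshold (edgeR adjusted p = 0.0922 and 0.0621) and passed it with the replicate block (edgeR adjusted p = 0.0256 and 0.0111). Without library 3 labelled knockout they also passed (edgeR adjusted p = 0.0422 and 0.0262), and Ambra1 did without control 1 (0.0440). The Ulk1 call ended without library 1 or 2 labelled knockout (edgeR adjusted p = 0.0543 and 0.0650) and with library-size scaling (0.147).

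Among the 11 conjugation genes, which build and recycle the LC3 and GABARAP attachment, 3 fell and none rose. DESeq2 called 1 higher, Atg4d, limma-voom called none higher, and Atg4d was the only one of them higher at an unadjusted p under 0.05 in edgeR. Atg7, the activating enzyme for both conjugation branches, read 46.3, 47.8 and 52.7 CPM in controls and 39.3, 39.4 and 41.2 CPM in the libraries labelled knockout (log2 fold -0.29, SE 0.0840, edgeR adjusted p = 0.0301). Atg3, which transfers LC3 to its lipid, read 77.2, 75.5 and 62.9 CPM in controls and 56.0, 57.1 and 49.7 CPM in the libraries labelled knockout (log2 fold -0.40, SE 0.108, edgeR adjusted p = 0.0232). Atg10, the matching enzyme of the Atg12 branch, had a log2 fold of -0.29 without overlap (edgeR adjusted p = 0.0543), and the replicate block gave 0.0481. The 3 enzymes thus lay lower in every library labelled knockout, and Atg10 alone of them missed the threshold.

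Atg16l1 and Atg16l2 are scaffold paralogs, of which Atg16l1 is the one known to place the conjugation machinery on the membrane. Atg16l2 read 8.11, 8.59 and 6.69 CPM in controls and 5.13, 5.03 and 4.68 CPM in the libraries labelled knockout, a fall of 0.66 on the log2 scale (SE 0.132, edgeR adjusted p = 0.00853). Atg16l1 read 21.7, 21.9 and 19.1 CPM in controls and 16.4, 17.4 and 19.5 CPM in the libraries labelled knockout. Library 3 labelled knockout overlapped the controls for Atg16l1 (log2 fold -0.23, 95% interval -0.48 to 0.01, edgeR adjusted p = 0.112). It was called lower without that library (log2 fold -0.31, edgeR adjusted p = 0.0366). Atg12 and Atg5, which join to form the conjugate that Atg16l1 binds, had log2 folds of -0.07 and 0.16, with overlapping groups.

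The 4 Atg4 proteases, which trim LC3 and GABARAP proteins before attachment and release them afterwards, were not called. Atg4d read 46.4, 42.6 and 39.0 CPM in controls and 65.5, 62.8 and 45.2 CPM in the libraries labelled knockout. Libraries 1 and 2 labelled knockout were above all controls and library 3 was below control 1 (log2 fold 0.44, 95% interval 0.09 to 0.79, edgeR adjusted p = 0.0526). Atg4d was called higher with the replicate block (edgeR adjusted p = 0.0138) and without library 3 labelled knockout (log2 fold 0.59, edgeR adjusted p = 0.00269). In all it was called in 9 of 15 alternatives. Atg4d shares 19.3% of its exonic bases with Kri1 on the opposite strand, whose log2 fold was -0.09. Atg4a, Atg4b and Atg4c had log2 folds of -0.19, -0.11 and 0.01, with the groups apart for Atg4a alone.

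The Atg7 and Atg3 calls ended with library-size scaling (edgeR adjusted p = 0.811 and 0.195). They also ended without control 2 (0.0849 and 0.0921), without library 1 labelled knockout (0.107 and 0.0606) and without library 2 labelled knockout (0.113 and 0.0610). Without control 3 the Atg7 call was lost (0.0574), and without control 1 that of Atg3 (0.0716). For Atg7 the adjusted p was also 0.0870 with upper-quartile factors and 0.0521 with the 5 CPM filter.

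The LC3 and GABARAP genes, whose products coat the autophagosome and bind its cargo, were with Sqstm1 the most abundant members per kilobase of exon. In controls Gabarap was at 172 ± 26.2 CPM per kilobase, Map1lc3a at 129 ± 16.1 and Sqstm1 at 125 ± 15.5 (mean ± SD, n = 3). Gabarap was above both others in every control, whose Map1lc3a and Sqstm1 ranges overlapped. Gabarapl1 was at 56.8 ± 5.22, Gabarapl2 at 41.9 ± 4.91 and Map1lc3b at 32.7 ± 2.47 CPM per kilobase. Lengths are the union of all annotated exons, which for Map1lc3b is 7517 bases against 1181 for Map1lc3a, so a gene with long alternative exons reads lower on this scale. In the libraries labelled knockout Sqstm1, at 259 ± 74.4 CPM per kilobase, was above Gabarap at 147 ± 7.94.

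**Figure D3:**
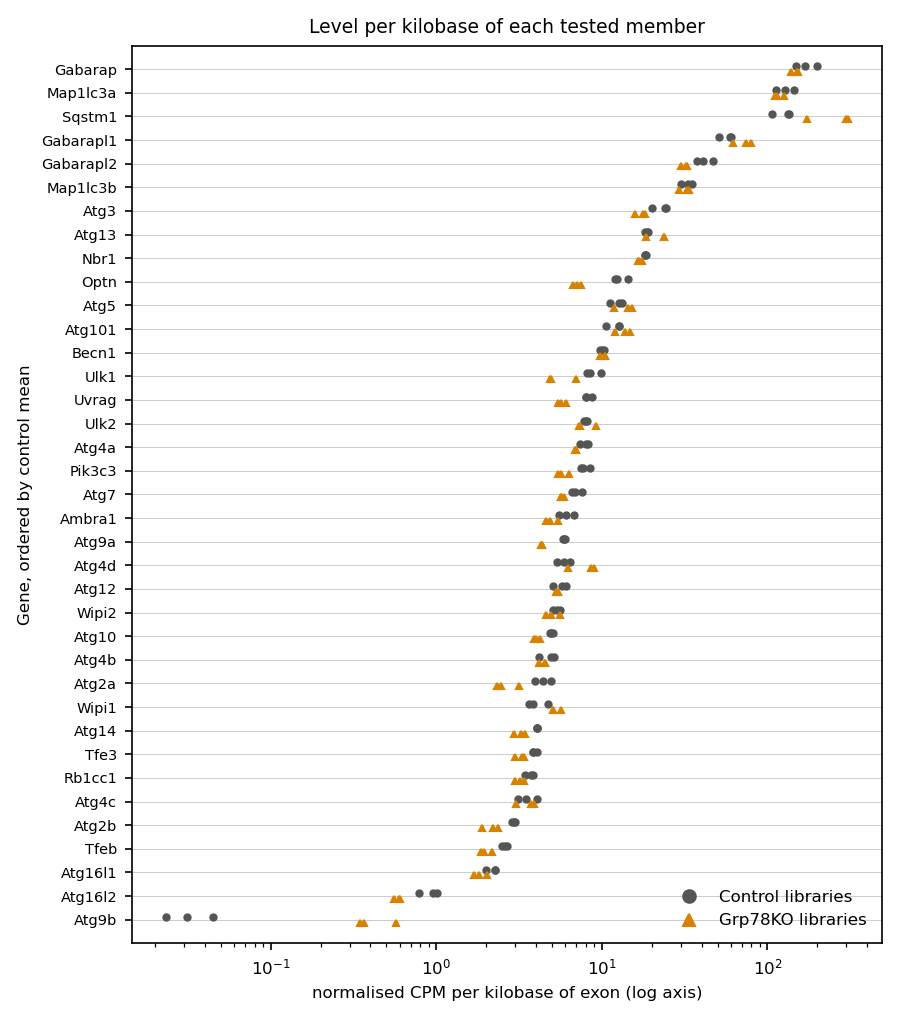
Normalised CPM per kilobase of exon (x axis, log scale) of each tested member in the 3 control and 3 knockout-labelled libraries, ordered by control mean. The LC3 and GABARAP genes and Sqstm1 take the top 6 places, and Atg9b, at 0.0331 in controls, the lowest.

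Of these 5 genes 1 fell and 4 were not called. Gabarapl2 (GATE-16) read 109.7, 95.04 and 87.2 CPM in controls and 74.9, 69.7 and 75.5 CPM in the libraries labelled knockout, without overlap (log2 fold -0.41, SE 0.105, edgeR adjusted p = 0.0205). Gabarapl1 read 122, 119 and 102 CPM in controls and 160.5, 149.6 and 125 CPM in the libraries labelled knockout. Its groups did not overlap, and it missed the threshold (log2 fold 0.34, SE 0.123, edgeR adjusted p = 0.0609) but passed in 8 of 15 alternatives, among them the replicate block (0.00906). It shares 28.3% of its exonic bases with 1700101I11Rik on the opposite strand, and counts of the pair may mix. 1700101I11Rik had 18 to 53 counts per library, beside 13369 to 21821 for Gabarapl1. Map1lc3b, the LC3 form most used as an autophagosome marker, read 262, 249 and 226 CPM in controls and 253, 247 and 221 CPM in the libraries labelled knockout. The groups were interleaved (log2 fold -0.03, 95% interval -0.28 to 0.22, edgeR adjusted p = 0.838).

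Map1lc3a and Gabarap had log2 folds of -0.14 and -0.23 (95% intervals -0.41 to 0.14 and -0.54 to 0.08), each with overlapping groups. Both were highest in control 1. The Gabarapl2 call ended without control 1 (edgeR adjusted p = 0.0507) or control 2 (0.0611), and without either of libraries 1 and 2 labelled knockout (0.0595 and 0.0877). It also ended with library-size scaling (0.248). Reads from near-identical copies of these short genes may have been split between them by the authors' counting, with rules not given in the sources used here.

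Both transcription factors of the list, which switch on lysosome and autophagy genes when mTORC1 activity drops, were called lower. Tfeb read 14.7, 15.1 and 14.04 CPM in controls and 10.6, 10.9 and 12.3 CPM in the libraries labelled knockout (log2 fold -0.37, SE 0.0976, edgeR adjusted p = 0.0214). Tfe3 read 35.5, 37.8 and 35.7 CPM in controls and 27.8, 30.7 and 31.4 CPM in the libraries labelled knockout (log2 fold -0.28, SE 0.0855, edgeR adjusted p = 0.0379). Neither gene overlapped between groups, and the differences were small. The Tfeb call ended when control 1, control 2, or either of libraries 1 and 2 labelled knockout was left out (edgeR adjusted p = 0.0527, 0.0826, 0.0919 and 0.0895) and with library-size scaling (0.462). The Tfe3 call ended without any library but library 3 labelled knockout (edgeR adjusted p = 0.0515 to 0.149), and with library-size scaling (0.899), upper-quartile factors (0.0889), no filter (0.0603) or the 5 CPM filter (0.0566).

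**Figure D4:**
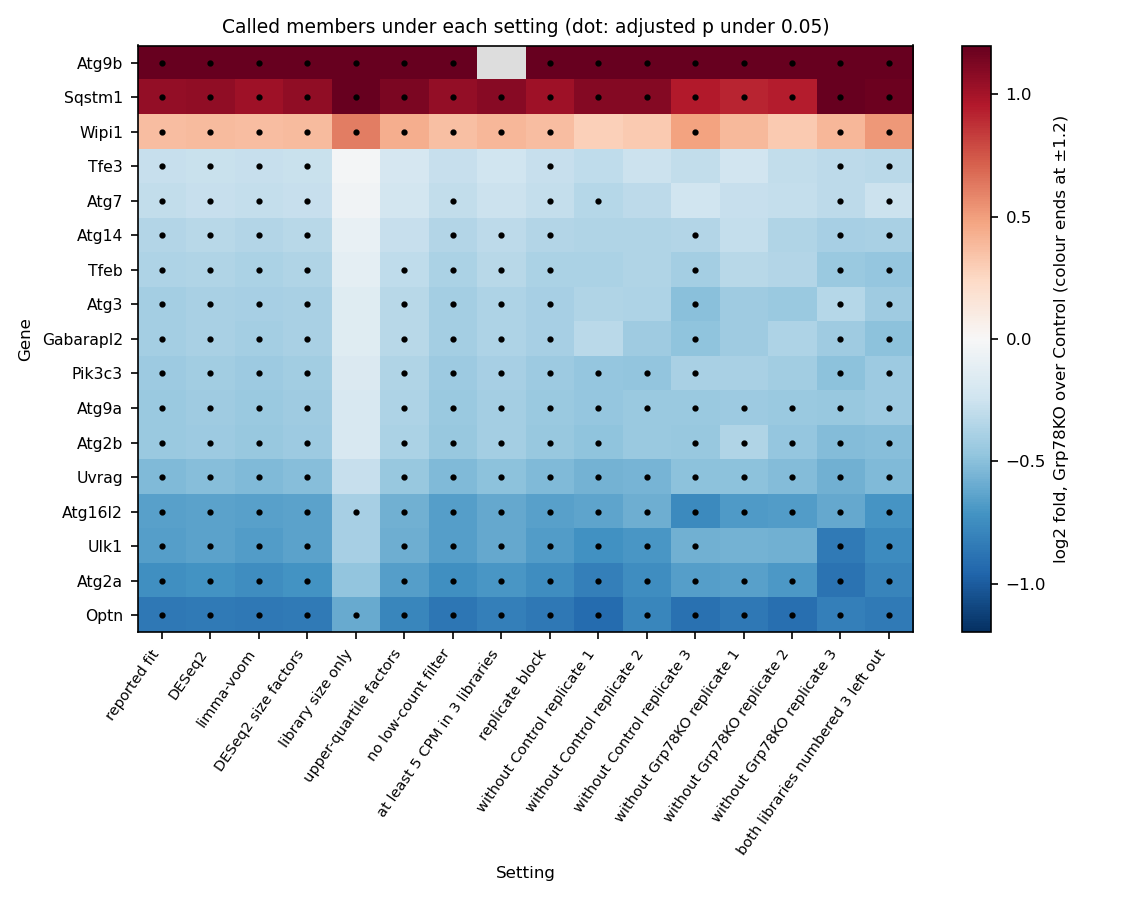
Log2 fold (colour, knockout-labelled over control, ending at ±1.2) of the 17 called members (rows) in the reported fit and 15 alternatives (columns), with a dot where the adjusted p was under 0.05 and grey where the gene was not tested. The library-size column keeps 5 dots, for Atg9b, Sqstm1, Wipi1, Atg16l2 and Optn.

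Outside the core, 73 other autophagy genes on 3 lists were tested, and 27 were lower and 6 higher, or 36.99% and 8.22%, beside the 18.8% and 18.0% of all genes tested. Their median log2 fold was -0.15. With library-size scaling 9 were lower and 23 higher, and with upper-quartile factors 19 and 10. Of all genes called, 82.2% and 59.2% were higher under these 2 scalings, against 48.9% in the reported fit. Without control 2, 16 were lower and 3 higher, and without library 1 or 2 labelled knockout 17 and 15 were lower and 3 higher each time. Without library 3 labelled knockout 32 were lower and 13 higher. The lists divide into other autophagosome genes, receptors for chosen cargo, and upstream control.

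Of 30 other autophagosome genes, 11 were lower and 3 higher. Wdfy3, a scaffold for clearing protein aggregates, fell by 0.92 on the log2 scale (edgeR adjusted p = 0.00852). Plekhm1, which tethers autophagosomes to lysosomes, fell by 0.80 (edgeR adjusted p = 0.000919), and Dapk1, a kinase that acts on Beclin 1, by 0.72 (edgeR adjusted p = 0.00170). Trp53inp1, a p53 target whose product binds LC3, read 58.6, 60.4 and 76.7 CPM in controls and 171, 175 and 155 CPM in the libraries labelled knockout. This was a 2.56-fold rise without overlap (log2 fold 1.35, SE 0.126, edgeR adjusted p = 0.000657). Wdr45, a WIPI relative, and Sh3glb1, a partner of Uvrag, rose by log2 folds of 0.48 and 0.29 (edgeR adjusted p = 0.0459 and 0.0463). The groups of Wdr45 overlapped, with library 3 labelled knockout (64.7 CPM) below control 3 (67.7 CPM), and those of Sh3glb1 did not. Both calls ended without control 2 (edgeR adjusted p = 0.171 and 0.149), without library 1 labelled knockout (0.142 and 0.121) and without library 2 labelled knockout (0.144 and 0.148). The Wdr45 call also ended without control 1 (0.143), with the replicate block (0.0825) and with limma-voom (0.0510), and that of Sh3glb1 without control 3 (0.102) and with no filter (0.0844).

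Of 19 genes for selective autophagy, 6 were lower and 2 higher. Ccpg1 and Atl3, receptors that take ER into autophagosomes, fell by 0.67 and 0.66 on the log2 scale (edgeR adjusted p = 0.00170 and 0.00668). Ccpg1 read 195, 200.2 and 192 CPM in controls and 116, 125 and 128 CPM in the libraries labelled knockout, so every library labelled knockout lay below the controls. Bnip3, a receptor on mitochondria, fell by 0.68 on the log2 scale (edgeR adjusted p = 0.00197). Stbd1, which binds glycogen, and Ncoa4, which carries ferritin to lysosomes, rose by log2 folds of 0.94 and 0.83 (edgeR adjusted p = 0.0200 and 0.0115). The Stbd1 call ended when control 2, control 3, or either of libraries 1 and 2 labelled knockout was left out (edgeR adjusted p = 0.0636, 0.0653, 0.0703 and 0.0706).

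Of 24 upstream control genes tested, 10 were lower and 1 higher. Foxo3, a transcription factor of autophagy genes, read 148, 165 and 146 CPM in controls and 64.4, 69.0 and 80.4 CPM in the libraries labelled knockout, a 2.14-fold fall (log2 fold -1.10, SE 0.111, edgeR adjusted p = 0.000799). Mitf, of the same family as Tfeb and Tfe3, fell by 1.08 on the log2 scale (edgeR adjusted p = 0.00383), and Flcn, which acts on the Rag GTPases that hold these factors at the lysosome, by 0.79 (edgeR adjusted p = 0.00908). Rragd, which encodes the Rag GTPase RagD, was the gene that rose, at 62.3, 63.4 and 57.6 CPM in controls and 101, 111 and 109 CPM in the libraries labelled knockout (log2 fold 0.81, SE 0.0847, edgeR adjusted p = 0.000865). With library-size scaling the calls of Wdfy3, Atl3 and Flcn ended (edgeR adjusted p = 0.0528, 0.0716 and 0.0710). Those of Plekhm1, Dapk1, Trp53inp1, Ccpg1, Bnip3, Ncoa4, Foxo3, Mitf and Rragd held in all 15 alternatives.

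**Figure D5:**
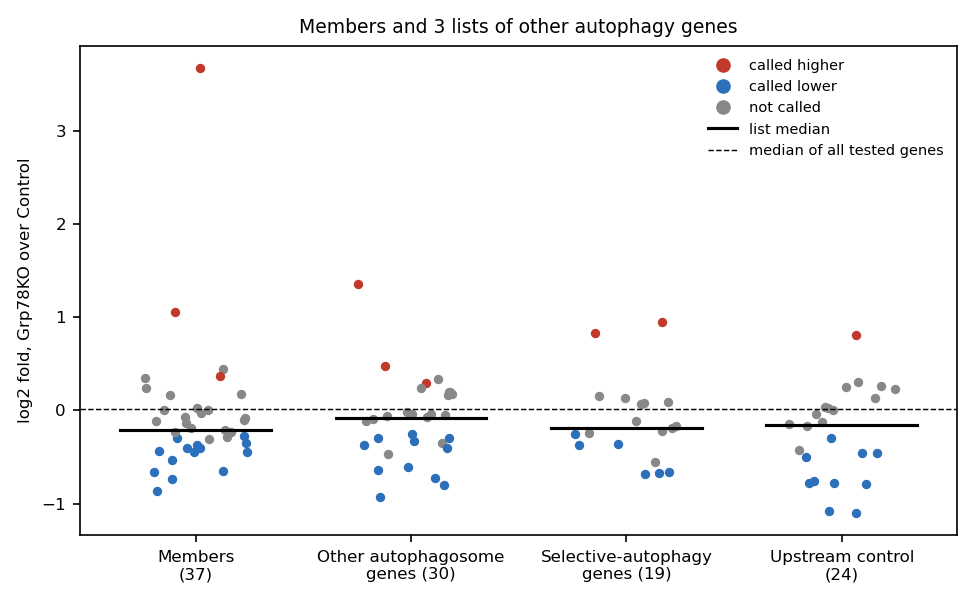
Log2 fold (y axis, knockout-labelled over control) of the tested members and of 3 lists of other autophagy genes, 1 point per gene coloured by its edgeR call, with bars at the list medians and a dashed line at the median of all genes tested. Each list median lies below the dashed line, at -0.21 for the members and at -0.08, -0.19 and -0.16 for the lists from left to right.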

How the data were processed

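The authors deposited 1 table of raw counts per gene for the 6 libraries (NEBNext Ultra RNA kit, 2 groups of 3), with aligner, counter, annotation and strand handling not given in the sources used here. Per the submitters' processing notes the build was mm10 and edgeR 3.7 was used. Counts of 2 outnumbered counts of 1 by 1.63 to 1.76 times, so that 1 fragment may have been counted by both mates; why was not tested. The whole table was fitted in edgeR 4.0.16 (R 4.3.3) with filterByExpr, TMM factors and robust quasi-likelihood F tests on group alone, with Benjamini-Hochberg adjustment over all genes tested. The SE is the log2 fold over the square root of F. Alternatives were DESeq2 1.42.0, limma-voom (limma 3.58.1), other scalings and filters, the replicate block and leaving out libraries. Scripts were tested on simulated counts.

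Deviations from group means correlated at 0.350, 0.200 and 0.329 between same-numbered libraries 1, 2 and 3. Control 2 with library 1 labelled knockout gave 0.171, and control 1 with library 2 labelled knockout gave 0.154. A pairing by number was used in the replicate block only, and the reported calls ignore it. By these deviations each library correlated most with the library of the same number in the other group. For number 1 this was 0.350 against 0.171 and 0.154, and for number 2 it was 0.200 against the same values. The margin was thus small for number 2. The replicate block called 8415 genes, against 6938 in the reported fit. Whether a pairing lies behind the numbers was not tested. The labels do not say what they mark, and libraries numbered 3 correlated at -0.350 to -0.211 with the others across groups. Replicate pairs differed beyond sampling noise (mean chi-square of 8.07 to 171 per gene, on halved counts). Members, lists and alternatives were chosen with earlier results of these data known. Named genes are every member, and of each list of other genes the 3 largest called rises and falls. Positions and exon lengths are from GENCODE M21, and 1 marker entry without a row was not analysed here.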

Additional observations from a re-analysis of the deposited data

How the results depend on the processing

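Of 17 called members, 4 kept their call in every alternative run for them, 7 in all 6 fits without 1 library, and 12 lost it with library-size scaling. Of 20 uncalled members, 12 were called in at least 1 alternative. The count of members higher was 5 with DESeq2, 5 with DESeq2 size factors, 9 with library-size scaling, 5 with upper-quartile factors, 5 with the replicate block and 7 without both libraries numbered 3. The count lower was 2 with library-size scaling, when 6218 of the 7561 genes called in all were higher. Other autophagy genes numbered 23 higher and 9 lower with library-size scaling, 10 higher with upper-quartile factors, and 16 higher without both libraries numbered 3, when 10581 genes were called in all against 6938. With 1 library left out, 2 to 6 members were higher and 6 to 17 lower, 3 to 13 other autophagy genes higher and 15 to 32 lower, and 3706 to 8548 of all genes were called. The replicate block (8415 genes called) ended no member's call. The cause of these changes was not tested. Atg9b gave no value under the 5 CPM filter.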
